A study of Mus musculus with 6 samples.

Results

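The BH3-only genes examined here are *Bbc3* (PUMA), *Pmaip1* (NOXA), *Bmf*, *Bcl2l11* (BIM), *Bid*, *Bad*, *Bik*, *Hrk*, *Bnip3* and *Bnip3l* (NIX), which are 10 of the 43346 genes in the count table and were taken from it by their gene names. RNA-seq was performed on mouse adult fibroblasts (MAFs), primary cells that came from ears of female adult WT C57BL6/J mice, in 3 control and 3 senescent samples. Senescent MAFs had received 20 Gy of X-rays and 21 further days of culture, while control MAFs were sham irradiated. All cells, control cells included, were grown at 3% oxygen, used between passages 3 and 8, synchronized with 100 nM dexamethasone for 2 hours and collected 12 hours later. Each value thus stands for a single time point after treatment with a glucocorticoid. How many animals gave the cultures is not given in the sources used here, and p-values measure the spread between these samples only.

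BH3-only proteins are the sensors that start the mitochondrial pathway of apoptosis. Each carries a short helix, the BH3 domain, that fits into a groove on the survival proteins BCL-2, BCL-XL, BCL-W and MCL-1, and BIM, PUMA and BID can also activate the effectors BAX and BAK, which open the outer mitochondrial membrane. BNIP3 and NIX have only a weak BH3 domain and are known best as receptors that hand mitochondria to autophagosomes. Senescent fibroblasts are known for resistance to apoptosis, and ABT-263 (navitoclax), which the study used to kill them, is a small molecule built to imitate a BH3 domain.

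The BH3-only genes differed between senescent and control MAFs in opposite directions. NOXA RNA was 42.8-fold higher and BMF RNA 16.0-fold lower in senescent MAFs, *Bid* was 1.97-fold higher, and *Bnip3*, *Bbc3*, *Bad*, *Bcl2l11* and *Bnip3l* were between 2.04-fold and 1.15-fold lower. *Hrk* and *Bik* were at or near 0 counts in control cells and had few counts in senescent cells. Of the 10 genes, 8 had enough counts for the test, and all 8 passed a threshold of 0.05 on the Benjamini-Hochberg adjusted p (quasi-likelihood test of edgeR, adjusted over all genes), 2 of them higher and 6 lower. The background is high, since 70.3% of the 17589 genes tested passed the same threshold, 36.2% higher and 34.1% lower. The control and senescent values did not overlap for any of the 8, as for 75.3% of all genes tested. The size of the change set *Pmaip1* and *Bmf* apart. A larger increase than that of *Pmaip1* was fitted for 1.88% of the genes tested, and a larger decrease than that of *Bmf* for 0.858%. By a rule in the study's methods, which is not its only threshold and asks for more than a 2-fold change and an unadjusted p under 0.05, *Pmaip1*, *Bmf* and *Bnip3* were differentially expressed, 3 of the 8 against 30.1% of all genes tested.

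**Figure D1:**
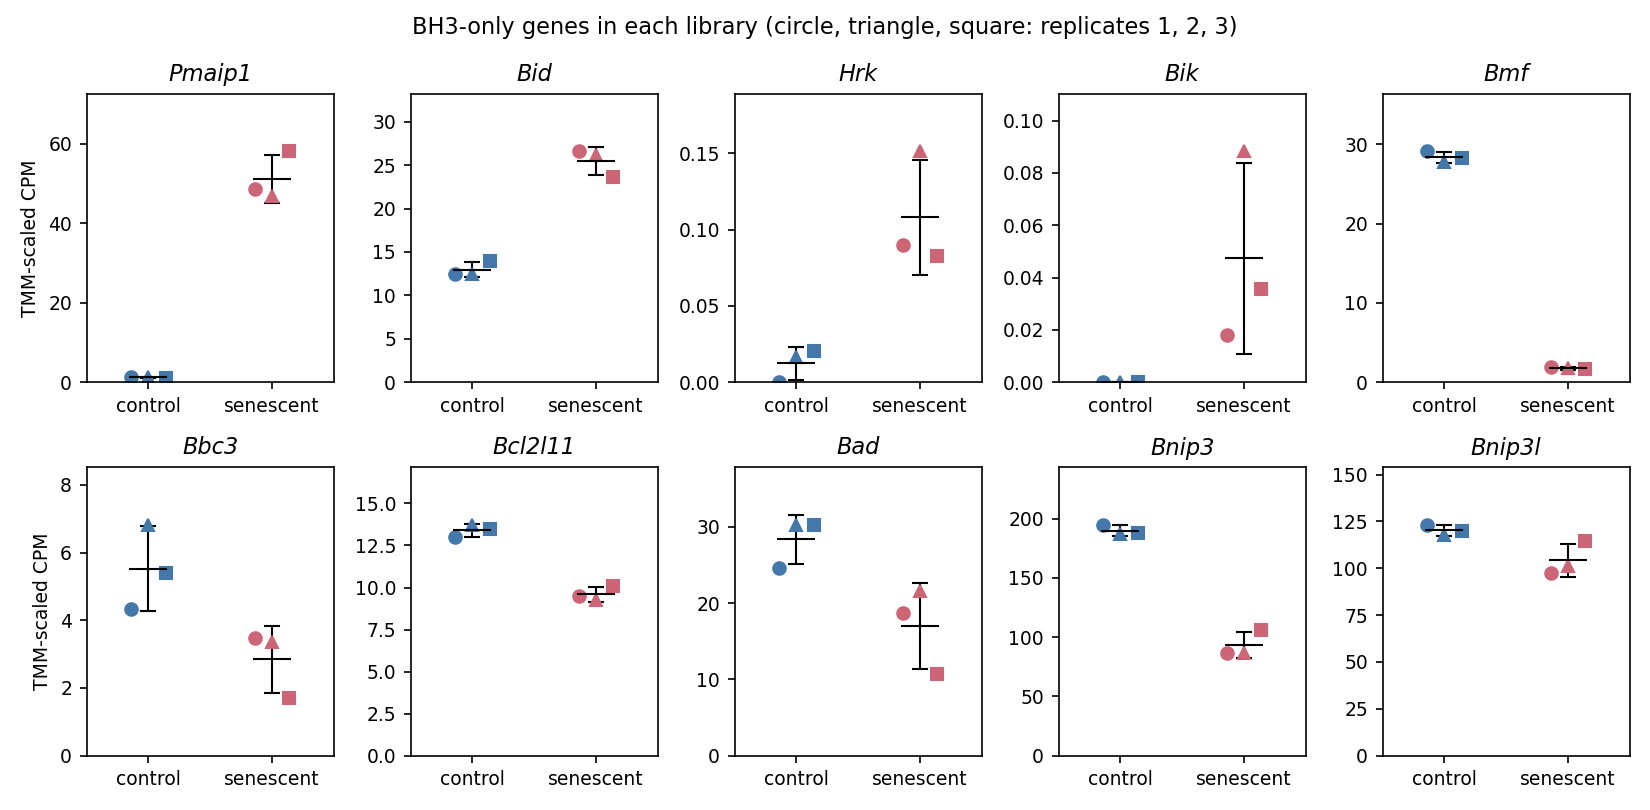
Level of each BH3-only gene in TMM-scaled CPM (vertical axes, each from 0) in the 3 control and 3 senescent libraries, with circles, triangles and squares for replicates 1, 2 and 3 and black marks for mean ± SD. *Pmaip1* was near 1 CPM in control cells and between 46.7 and 58.1 CPM in senescent cells, *Bmf* went from at least 27.8 CPM to at most 1.97 CPM, and senescent replicate 3 was lowest for *Bbc3* and *Bad*.

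Promoter sequences are shown for 4 genes with lower RNA in senescent cells, because the study is about the clock factor BMAL1, which is known to bind the E-box (CACGTG), and the stress factor AP-1, which is known to bind TGACTCA or TGAGTCA. The windows run from 250 bases before to 50 bases after each RefSeq transcript start in GRCm38.p6, and 13 windows of 7 of the 10 genes were at hand. No window was at hand for *Pmaip1*, *Bik* or *Bnip3l*, so these genes were not searched. Both strands were searched. An E-box was found in windows of 2 of the 7 genes, *Bnip3* and *Bbc3*, where 8.09% of all genes with a window have one. An AP-1 motif was found in 0 of the 7, against 5.95% of all genes, and 7 genes are too few to show a lack of it. The letters GTAAACA, a form of the motif bound by FOXO factors, were found for *Bcl2l11* and *Bbc3*, against 4.05% of all genes. The hypoxia response core ACGTG, which lies within the E-box on either strand, was found for *Bnip3*, *Bbc3* and *Bmf*, against 21.8%. These shares count genes, and the 7 genes had on average more windows each than the 27025 genes with 32851 windows. Of all windows, 7.15% held an E-box, 5.2% an AP-1 motif, 3.65% GTAAACA and 19.6% ACGTG. Capitals mark the E-box 108 bases before the start in *Bnip3* (minus strand, chr7:138909507-138909706) and 64 bases before the start in *Bbc3* (plus strand, chr7:16310231-16310430), and GTAAACA 227 bases before the start in *Bcl2l11* (plus strand, chr2:128125791-128126037). The *Bbc3* stretch precedes a RefSeq start inside the gene's annotated span, the *Bnip3* stretch reaches 13 bases into its gene, and the others end at or next to the annotated gene start. The *Bmf* stretch (minus strand, chr2:118549687-118549886), from the gene with the largest decrease, held none of the E-box, AP-1, FOXO or hypoxia letters. A match describes these letters only and is not a measurement of binding.
Bnip3: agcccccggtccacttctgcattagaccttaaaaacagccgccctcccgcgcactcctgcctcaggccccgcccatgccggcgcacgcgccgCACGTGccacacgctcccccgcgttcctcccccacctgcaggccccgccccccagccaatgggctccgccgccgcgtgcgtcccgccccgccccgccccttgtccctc
Bbc3: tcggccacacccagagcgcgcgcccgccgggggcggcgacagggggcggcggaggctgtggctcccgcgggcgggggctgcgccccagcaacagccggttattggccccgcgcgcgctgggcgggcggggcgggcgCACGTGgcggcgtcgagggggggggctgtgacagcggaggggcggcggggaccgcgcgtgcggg
Bcl2l11: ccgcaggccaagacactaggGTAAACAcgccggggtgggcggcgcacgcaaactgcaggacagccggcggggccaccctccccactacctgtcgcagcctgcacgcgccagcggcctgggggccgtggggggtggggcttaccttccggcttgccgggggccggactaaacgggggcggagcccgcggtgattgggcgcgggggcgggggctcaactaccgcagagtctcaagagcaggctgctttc
Bmf: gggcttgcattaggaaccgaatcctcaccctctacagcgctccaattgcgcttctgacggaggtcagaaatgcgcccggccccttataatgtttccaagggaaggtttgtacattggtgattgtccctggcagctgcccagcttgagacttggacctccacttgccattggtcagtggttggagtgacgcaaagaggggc

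Levels below are counts scaled for library size and composition (TMM-scaled CPM) and, where genes are compared with each other, the same per kilobase of the deposited gene length. Control libraries held 50288454 to 61747564 counts and senescent libraries 53792998 to 82229553. In 1 library, a count of 0 allows up to 3 counts for counting error alone, which is on average 0.0572 CPM in a control library and 0.0425 CPM in a senescent one. Senescent replicate 3 stood apart from the other senescent libraries in a way that followed GC content. Over 5 equal groups of genes by GC content of the longest transcript, the median log2 ratio of senescent replicate 3 to senescent replicates 1 and 2 went from 0.27 in the AT-richest group to -0.45 in the GC-richest. Fibroblast markers (10 genes) summed to between 19200 and 21286 CPM in control and between 7581 and 8702 CPM in senescent cells, but 4 of them rose (*Dpt*, *Dcn*, *Thy1* and *Lum*) and 6 fell, *Col1a1*, *Col1a2* and *Col3a1* among them. A list of 8 chondrocyte markers, of which *Col2a1*, *Col11a1* and *Acan* had the highest CPM in control cells, summed to between 6712 and 7215 CPM in control and between 594.8 and 679.8 CPM in senescent cells, and *Matn1* stayed under 1 CPM in every library. All 7 tested chondrocyte markers fell. Macrophage markers summed to 8.24 to 9.03 CPM in control and 18.7 to 21.8 CPM in senescent libraries (6 of 6 tested markers higher), and endothelial markers to 2.55 to 2.93 and 8.16 to 8.71 CPM (5 of 5 higher). Keratinocyte markers summed to 16.3 to 17.1 and 30.6 to 30.8 CPM (3 of 6 higher and 1 lower). Those of skeletal muscle (17.7 to 22.8 and 16.9 to 29.9 CPM) overlapped between the groups, and those of Schwann cells and melanocytes were at 52.3 to 57.2 and 46.7 to 51.9 CPM. The part of these shifts in the values below was not tested, and in bulk RNA fewer cells of a type and less RNA per cell cannot be told apart.

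*Pmaip1* (ENSMUSG00000024521, chromosome 18 of mm10 from 66458604 to 66465550) encodes NOXA, a p53-inducible protein that binds MCL-1 and speeds its degradation. It was at 1.22, 1.34 and 1.00 CPM in control replicates 1, 2 and 3 and at 48.7, 46.7 and 58.1 CPM in senescent replicates 1, 2 and 3. The groups lay far apart, from 49 to 80 counts per control library to 2700 to 4906 counts per senescent library. Its log2 fold change of 5.42 had a standard error of 0.14 (adjusted p = 4.31e-08, edgeR), and it lay between 5.26 and 5.52 under all 14 alternatives in processing and sample choice. Of the 12950 other genes with a mean count of at least 100, those whose profile over the 6 libraries was nearest to that of *Pmaip1* were *Wif1*, a secreted Wnt inhibitor, the metalloproteinase gene *Mmp3* and *Il13ra2*, a decoy receptor for IL-13, at Euclidean distances of 0.279, 0.360 and 0.377 on the log2 CPM scale. These 3 genes had log2 fold changes of 5.54, 5.51 and 5.92.

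*Bid* (ENSMUSG00000004446, chromosome 6 from 120891930 to 120916853) encodes the BH3-only protein that caspase-8 cleaves, which carries death receptor signals to mitochondria. It was at 12.4, 12.5 and 13.9 CPM in control replicates 1, 2 and 3 and at 26.6, 26.2 and 23.6 CPM in senescent replicates 1, 2 and 3. Every senescent value was above every control value, with a log2 fold change of 0.97 and a standard error of 0.08 (adjusted p = 2.44e-05, same edgeR test). The annotated span of *Bid* shares 913 bases with that of its neighbour *Bcl2l13*, which changed the other way (log2 fold change -0.60). The strand setting of the counting is not given in the sources used here, so reads in the shared bases could belong to either gene.

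*Bmf* (ENSMUSG00000040093, chromosome 2 from 118528757 to 118549687) encodes a BH3-only protein that is held on the cytoskeleton by dynein light chain 2 and is known for its part in death after loss of attachment. It was at 29.1, 27.8 and 28.3 CPM in control replicates 1, 2 and 3 and at 1.97, 1.78 and 1.60 CPM in senescent replicates 1, 2 and 3, which is 6.24% of the control level by the fit. The values within each group were close and the groups did not overlap. The log2 fold change of -4.00 had a standard error of 0.10 (adjusted p = 3.25e-08, edgeR) and lay between -4.07 and -3.83 under all 14 alternatives. *Dynll2*, the gene of that dynein light chain, rose in senescent cells from 123.8 ± 3.65 to 238.5 ± 28.4 CPM (SD, n = 3 per group). The nearest profiles to that of *Bmf* were those of *Racgap1*, which works in cytokinesis, *Tnn*, which encodes the matrix protein tenascin-N, and the sulfatase gene *Arsi*, at distances of 0.137, 0.164 and 0.171 on the same scale. Their log2 fold changes were -3.98, -3.89 and -3.96.

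*Bcl2l11* (ENSMUSG00000027381, chromosome 2 from 128126038 to 128162547) encodes BIM, which binds every survival protein and whose transcription FOXO factors can drive. It was at 13.0, 13.7 and 13.5 CPM in control replicates 1, 2 and 3 and at 9.49, 9.23 and 10.1 CPM in senescent replicates 1, 2 and 3. The decrease was small, to 71.7% of the control level, but larger than the spread between replicates (log2 fold change -0.48, standard error 0.08, adjusted p = 0.000712, same edgeR test). It stayed past the threshold under all 14 alternatives, with log2 fold changes between -0.51 and -0.40. The counts cover the whole gene, so the BIM isoforms, which differ in potency, were not separated.

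*Bbc3* (ENSMUSG00000002083, chromosome 7 from 16309616 to 16318205) encodes PUMA, the other BH3-only protein with a well-known p53 response. It was at 4.33, 6.83 and 5.41 CPM in control replicates 1, 2 and 3 and at 3.48, 3.36 and 1.69 CPM in senescent replicates 1, 2 and 3. The groups did not overlap, but replicates differed more than for the genes above, and senescent replicate 3 lay well below the other senescent libraries. The fitted log2 change was -0.98, with a standard error of 0.28 (adjusted p = 0.0147, same edgeR test). It was -0.70 without senescent replicate 3 (adjusted p = 0.00240) and -0.79 without control replicate 2, where the call was lost (adjusted p = 0.0590). *Bbc3* and *Pmaip1*, which share p53 as a known regulator, thus lay on opposite sides of every control value in all 3 senescent libraries.

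*Bad* (ENSMUSG00000024959, chromosome 19 from 6941861 to 6951898) encodes a BH3-only protein that AKT, PIM and RSK kinases keep inactive by phosphorylation, which holds it on 14-3-3 proteins. It was at 24.6, 30.2 and 30.3 CPM in control replicates 1, 2 and 3 and at 18.8, 21.6 and 10.7 CPM in senescent replicates 1, 2 and 3. Senescent replicate 3 was again the lowest, and the groups did not overlap. The fitted log2 change was -0.74, with a standard error of 0.24 (adjusted p = 0.0228, same edgeR test). Without senescent replicate 3 it was -0.48 (adjusted p = 0.000941), and the call was lost without control replicate 2 (adjusted p = 0.0672) or control replicate 3 (adjusted p = 0.0684). The span of *Bad* shares 590 bases with that of *Gpr137*, which was also lowest in senescent replicate 3, at 12.1 CPM against 19.6 and 20.2 CPM in senescent replicates 1 and 2.

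Among the 8 tested BH3-only genes, the most GC-rich were low in senescent replicate 3 and the most AT-rich were high, the same direction as over all genes. *Bbc3* and *Bad* have GC contents of 65.2% and 57.1%, in the GC-richest group of genes. Their log2 ratios of senescent replicate 3 to the other senescent libraries were -0.97 and -0.91, well below the median of -0.45 in that group. *Pmaip1*, *Bnip3* and *Bnip3l*, with 42.1%, 41.6% and 41.9% GC, lay in the AT-richest group and had ratios of 0.28, 0.28 and 0.20. *Bmf* had a ratio of -0.22, where the median of its group was -0.17. *Bid* and *Bcl2l11*, which share a group with a median of 0.02, had ratios of -0.16 and 0.11. When the fit also held a GC term per library, an alternative chosen after seeing the data, all 8 genes kept their direction and their call. Under that term the log2 fold changes of *Bbc3* and *Bad* were -0.59 and -0.495 (adjusted p = 0.00136 and 0.0256, edgeR), and those of *Bnip3* and *Bnip3l* were -1.20 and -0.37. The cause of the difference between the senescent libraries was not tested.

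**Figure D2:**
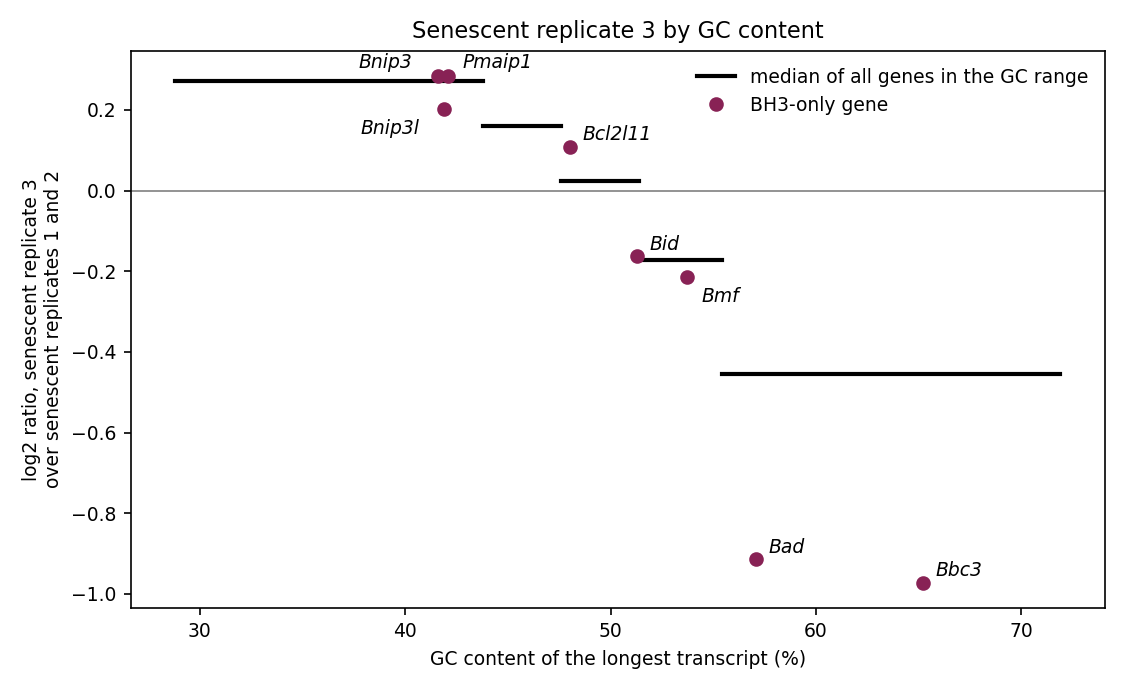
Log2 ratio of senescent replicate 3 to the mean of senescent replicates 1 and 2 (vertical axis) against GC content of the longest transcript in percent (horizontal axis), for the 8 tested BH3-only genes (points) and as the median of all genes with a mean count of at least 100 in each of 5 GC groups (black lines). The medians go from 0.27 to -0.45, and *Bbc3* and *Bad* lie at -0.97 and -0.91.

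*Bnip3* (ENSMUSG00000078566, chromosome 7 from 138890836 to 138909519) and *Bnip3l* (ENSMUSG00000022051, chromosome 14 from 66985239 to 67008877) were the most abundant of the 10 genes per kilobase in both groups. *Bnip3*, a well-known hypoxia-inducible gene, was at 194.8, 186.8 and 187.8 CPM in control replicates 1, 2 and 3 and at 86.5, 87.0 and 105.6 CPM in senescent replicates 1, 2 and 3. The groups lay well apart, with a log2 fold change of -1.03 and a standard error of 0.09 (adjusted p = 2.03e-05, same edgeR test) and a range of -1.20 to -0.95 over the 14 alternatives. *Bnip3l* was at 123.3, 117.6 and 120.1 CPM in control replicates 1, 2 and 3 and at 97.5, 101.1 and 114.3 CPM in senescent replicates 1, 2 and 3. Its groups came close without overlapping, and the decrease was the smallest of the 8, with a log2 fold change of -0.21 and a standard error of 0.07 (adjusted p = 0.0320, same edgeR test). That call was lost under 9 of the 14 alternatives. It was lost without any 1 control replicate (adjusted p = 0.0898, 0.0614 and 0.0710 without replicates 1, 2 and 3) and without senescent replicate 1 or 2 (0.115 and 0.0983), and held without senescent replicate 3 (1.28e-05). Per kilobase, *Bnip3* was at 2.69 ± 0.0215 times the level of *Bnip3l* in control and 1.52 ± 0.0542 times in senescent cells (SD, n = 3 per group), and the ratios of the 2 groups did not overlap. The sequences of these paralogs are related, and the treatment of reads that fit more than 1 place is not given in the sources used here.

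*Hrk* (ENSMUSG00000046607, chromosome 5 from 118164648 to 118189478) and *Bik* (ENSMUSG00000016758, chromosome 15 from 83526862 to 83544635), BH3-only genes known from neurons and from epithelia, were below the filter for the test. The counts of *Hrk* were 0, 1 and 1 in the control replicates, in order of their number, and 5, 12 and 7 in the senescent replicates. From the summed counts of 2 and 24, the level in senescent cells was 8.69 times that in control cells, with a 95% exact Poisson interval of 2.16 to 75.8 for counting error only. *Bik* had no read in any control library (0 counts) and 1, 7 and 3 counts in the senescent replicates. From the summed counts of 0 and 11, the same kind of interval for its ratio starts at 1.82 and has no upper end. For each of these genes the senescent values were above the control values, and an exact permutation test of 3 against 3, for a difference either way, gave the smallest p it can, 0.1. In a fit without the filter on low counts, both had an adjusted p under 0.05 (0.0111 for *Hrk* and 0.0350 for *Bik*, edgeR). That fit called 13739 of 29776 genes. *Bik* entered it only through its senescent counts, and *Hrk* mostly so, so these p-values add no support beyond the counts. Every senescent library also had counts for more genes (25034 to 26281) than any control library (21416 to 21833).

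The order of the genes by level changed between the groups. Per kilobase in control cells, it ran from *Bnip3* (83.8 ± 1.93) through *Bnip3l* (31.2 ± 0.733), *Bad* (14.1 ± 1.63), *Bmf* (5.41 ± 0.133), *Bid* (3.65 ± 0.238), *Bbc3* (2.75 ± 0.623) and *Bcl2l11* (1.67 ± 0.0473) to *Pmaip1* (0.449 ± 0.0648), as mean ± SD of CPM per kilobase with n = 3. Among these 8 genes the values of neighbours did not overlap in control cells. In senescent cells *Pmaip1* was the third, at 19.3 ± 2.30 CPM per kilobase, and *Bmf* was the eighth, at 0.339 ± 0.0349 CPM per kilobase. *Bad* (8.48 ± 2.83) and *Bid* (7.17 ± 0.463) overlapped there, and so did *Bbc3* (1.42 ± 0.497) and *Bcl2l11* (1.20 ± 0.0556). Of the summed level of the 8 genes other than *Bnip3* and *Bnip3l*, *Bad* held 50.3% ± 2.02 in control and 22.1% ± 6.72 in senescent cells, *Bmf* 19.4% ± 2.05 and 0.891% ± 0.0701, *Bid* 13.0% ± 0.960 and 18.9% ± 0.583, and *Pmaip1* 1.61% ± 0.273 and 51.1% ± 8.14 (SD, n = 3 per group).

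**Figure D3:**
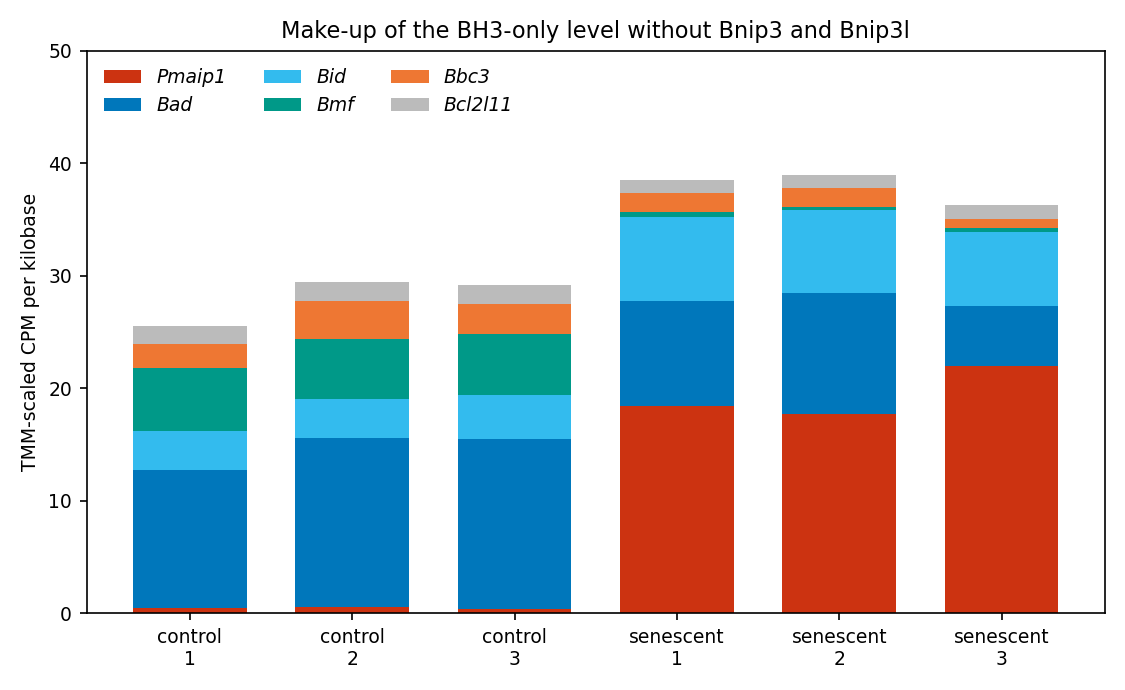
Stacked level in TMM-scaled CPM per kilobase (vertical axis) of 6 BH3-only genes in each of the 6 libraries (horizontal axis); *Hrk* and *Bik* are too low to draw, and *Bnip3* and *Bnip3l* are left out. *Pmaip1* makes up a mean of 51.1% of the senescent bars and 1.61% of the control bars, and *Bmf* 0.891% and 19.4%.

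The sum over these 8 genes was 28.1 ± 2.18 CPM per kilobase in control and 38.0 ± 1.44 in senescent cells (SD, n = 3 per group). Without *Pmaip1*, the other 7 summed to 25.1, 29.0 and 28.8 CPM per kilobase in control replicates 1, 2 and 3 and to 20.2, 21.4 and 14.4 in senescent replicates 1, 2 and 3. The sum was thus higher in senescent cells with *Pmaip1* and lower without it, in both cases with no overlap between the groups. The survival genes summed to 70.1 ± 2.04 CPM per kilobase in control and 102.5 ± 5.69 in senescent cells. The ratio of the survival sum to the sum of the 8 BH3-only genes was 2.51 ± 0.281 in control and 2.70 ± 0.256 in senescent cells, and its values overlapped between the groups. The level of *Mcl1*, whose product NOXA binds, was 96.3 ± 14.6 times that of *Pmaip1* in control and 2.86 ± 0.0650 times in senescent cells. These are ratios of RNA levels, given as a description with no test.

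Of the 8 survival genes in the list, 4 were tested, and all 4 were called higher in senescent cells, as were 36.2% of all genes tested. Their log2 fold changes were 1.73 for *Bcl2*, 0.74 for *Bcl2l1* (BCL-XL), 0.75 for *Bcl2l2* (BCL-W) and 0.38 for *Mcl1*. The other survival genes, *Bcl2a1a*, *Bcl2a1b*, *Bcl2a1d* and *Bcl2l10*, had at most 9 counts in a library and were not tested. Of the 3 effectors, *Bak1* and *Bok* were called lower, as were 34.1% of all genes tested, with log2 fold changes of -0.66 and -1.40. *Bax* was at 63.4, 70.7 and 69.5 CPM in control replicates 1, 2 and 3 and at 94.5, 97.9 and 58.8 CPM in senescent replicates 1, 2 and 3, and did not pass the threshold (adjusted p = 0.160, edgeR). For *Bax* too, senescent replicate 3 was the low library, and senescent replicates 1 and 2 lay above every control value. All 3 effectors, *Bax* included, were called with the GC term per library and in the fit without senescent replicate 3. Over all genes, these fits called 13503 of 17425 and 13695 of 17779.

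**Figure D4:**
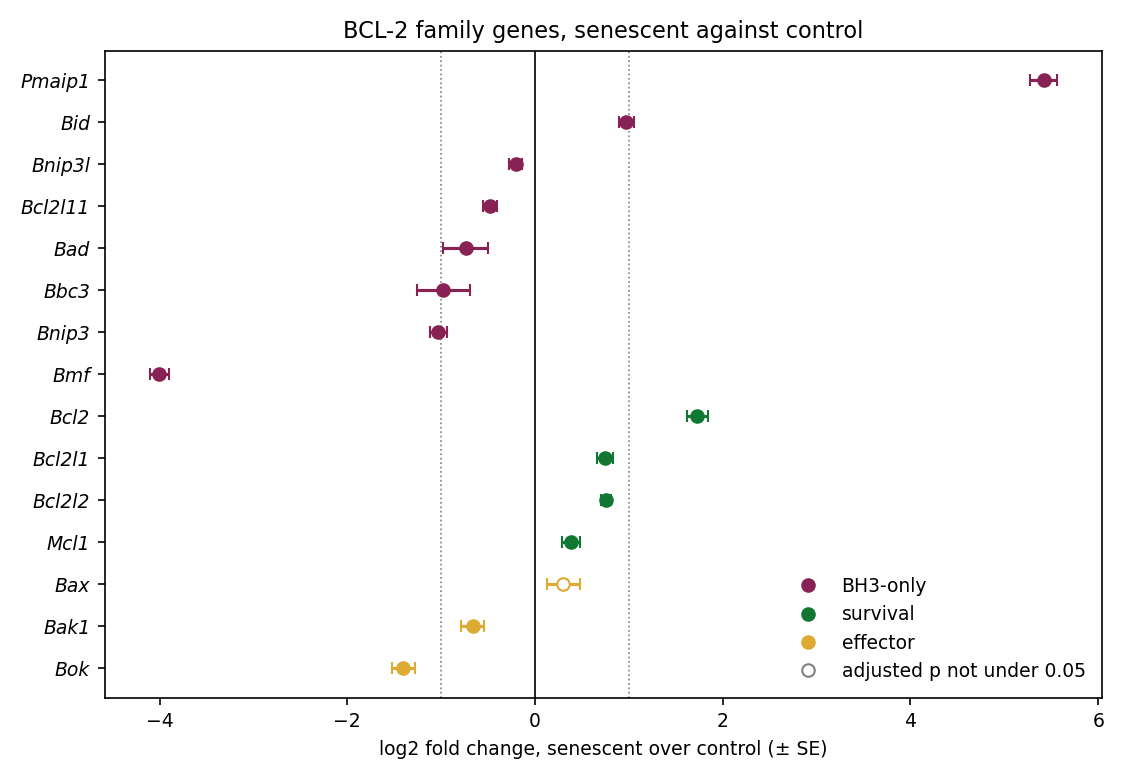
Log2 fold change of senescent over control cells with its standard error (horizontal axis) for the 8 tested BH3-only genes, 4 survival genes and 3 effectors; filled points have an adjusted p under 0.05, and dotted lines mark a fold change of 2. The BH3-only genes run from -4.00 (*Bmf*) to 5.42 (*Pmaip1*), and the survival genes lie between 0.38 and 1.73.

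Genes of the known routes to the BH3-only genes were counted from lists written for this purpose, with 70.3% of all genes tested and a median log2 fold change of 0.01 over them as the background. In the p53 route, which reaches *Pmaip1* and *Bbc3*, 17 of 21 rose and 2 fell, at a median log2 fold change of 1.01. *Cdkn1a*, which encodes the cell cycle inhibitor p21, rose from 123 ± 2.01 to 619 ± 16.3 CPM (SD, n = 3 per group), *Gadd45a* and *Perp* had log2 fold changes of 2.38 and 2.29, and *Sesn1* and *Mdm4* fell, with -1.15 and -0.75. In the list of FOXO, JNK, E2F and stress factors, which can reach *Bcl2l11*, *Bmf*, *Bbc3* and *Pmaip1*, 6 of 12 rose and 4 fell, at a median of 0.18. *Ddit3* (CHOP), *Foxo1* and *Jun* had log2 fold changes of 1.36, 1.27 and 0.98, and *E2f2*, *Foxo4* and *Trib3* of -2.38, -0.96 and -0.51. In the hypoxia route of *Bnip3*, 6 of 17 rose and 9 fell, at a median of -0.33. *Epas1*, *Ero1l* and *Adm* had log2 fold changes of 1.41, 1.32 and 1.02, while *Pdk1*, *Ankrd37* and *Egln3* had -1.34, -1.10 and -0.76, so *Bnip3* fell together with some hypoxia-inducible genes while others rose.

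Among protein partners and modifiers, which hold BMF and BIM on motor complexes or BAD on 14-3-3 proteins, 9 of 21 rose and 7 fell, at a median log2 fold change of 0.02. The kinase gene *Pim1* and the 14-3-3 gene *Ywhaz* had log2 fold changes of 1.29 and 0.63, and the kinase genes *Rps6ka1* (RSK1), *Mapk3* (ERK1) and *Akt2* had -1.76, -0.86 and -0.60. In the caspase cascade list, 2 of 15 genes rose and 10 fell, at a median of -0.35. Not all of this list lies downstream of the BH3-only proteins, since it holds the gene of caspase-8, which cleaves BID. It also mixes caspase genes with inhibitor of apoptosis genes such as *Birc3* and *Birc5*, so its counts have no single meaning for cell death. *Cycs* (cytochrome c) and *Birc3* had log2 fold changes of 0.67 and 0.47, *Casp9* had -1.20, and *Birc5* (survivin), which also works in mitosis, had -4.95. Of 18 tested mitophagy genes, 9 rose and 6 fell, at a median of 0.31. *Sqstm1* (p62), *Gabarapl1* and *Gabarapl2* had log2 fold changes of 1.12, 0.94 and 0.75. *Gabarapl1* and *Gabarapl2* encode ATG8 proteins that receptors such as BNIP3 and NIX bind. *Fkbp8*, *Ulk1* and *Bcl2l13* had log2 fold changes of -0.79, -0.78 and -0.60. *Fkbp8* (63.04% GC) was at 69.2, 77.8 and 41.1 CPM in senescent replicates 1, 2 and 3. *Ulk1* (57.95% GC) was at 39.3, 44.0 and 29.6 CPM there, so senescent replicate 3 was the low library for both.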

How the data were processed

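Counts per gene were deposited by the authors without normalization, after STAR alignment of read pairs (MAPRSeq pipeline, mm10) and counting with Subread. The deposited table also gives a gene length. Libraries were stranded and came from 200 ng of RNA. Sample titles and column names gave group and replicate. Genes were kept by filterByExpr (17589), scaled by TMM and compared with edgeR's robust quasi-likelihood test (edgeR 4.0.16, R 4.3.3), two-sided, with group as the only term and Benjamini-Hochberg adjustment. DESeq2 1.42.0 was an alternative.

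Gene names in the text follow a rule: all 10 members, all survival and effector genes, up to 3 genes per direction of each other list at an adjusted p under 0.05 and a mean count of at least 100, and the 3 nearest profiles. A gene of the caspase list that the rule names is not reported here. *Gpr137* and marker genes fall outside it. Members and lists were chosen with earlier results of these data known. The fits were tested on simulated data. No pair of replicates was as alike as 1 library deposited again would be, so each counted as 1 sample. Squared count differences had medians of at least 1.83 times the sampling noise, and 32.9 and 48.1 times for the pairs with senescent replicate 3. Separate libraries from the same culture could also pass this check, so it does not show that the samples were independent. Promoter windows are from RefSeq (GRCm38.p6, the assembly mm10 names), and GC content from GENCODE transcripts covered 99.1% of genes tested.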

Additional observations from a re-analysis of the deposited data

How the results depend on the processing

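Of 112 alternative fits of the 8 tested BH3-only genes, 98 kept both direction and side of the threshold, 14 kept the direction only and 0 reversed. All 14 concern *Bbc3*, *Bad* and *Bnip3l*. Without a filter on low counts, the adjusted p was 0.0508 for *Bbc3* and 0.0991 for *Bad* (edgeR's quasi-likelihood test). In that fit 5 of the 10 genes passed the methods threshold in place of 3, and 4 in place of 2 were called higher, *Hrk* and *Bik* being tested only there. Over all genes, it put 7761 of 29776 past the methods threshold and called 13739. Of the genes called, 56.08% were higher, against 51.44% in the main fit. *Bnip3l* lost its call with library size scaling alone (adjusted p = 0.145), a minimum of 10 counts per library (0.0774) and DESeq2 (0.0548), as well as in the fits named beside its values. With each library left out in turn, between 5 and 8 of the genes were called, between 3 and 6 of them lower, the lowest without control replicate 2. The cause was not tested. Over all genes, the methods threshold gave 3483 in place of 5300 under that 10-count minimum. Of 196 counts under alternatives, 191 lay within 1.5 times their main value. Whether the replicate numbers pair the samples could not be decided. Deviations of same-numbered libraries correlated at -0.47, 0.36 and -0.31, and those of control replicate 1 and senescent replicate 3 at 0.58. A library that stands apart, as senescent replicate 3 does, can set such values with or without pairing. With a replicate block, 11624 genes were called in place of 12365, and 7 of the 8 BH3-only genes, *Bnip3l* being lost (adjusted p = 0.0627).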
